A study of Mus musculus with 15 samples.

Results

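The comparison described here set islets of mice carrying a human calpastatin transgene (hCAST) against islets of wild-type mice (WT). It used 6 of the 15 libraries in the series, 3 hCAST and 3 WT, chosen by their labels and not by any measured value. RNA was measured by sequencing bulk pancreatic islets of FVB/NJ mice aged 9 to 10 weeks. In hCAST mice the human CAST transgene was driven by the insulin II promoter, which is active mainly in beta cells. WT mice were labelled as wild type with no further detail. The same transgene was also present in 3 libraries with a human IAPP transgene under the insulin II promoter (hIAPP-hCAST), and these were set beside 3 libraries with human IAPP alone (hIAPP). This second pair of groups shares no library with hCAST against WT. A last group of 3 libraries with rodent IAPP under the insulin II promoter (rIAPP) entered the model for its estimate of spread. Founder line, litter, sex and the number of animals behind a library are not stated in the labels, so line and transgene cannot be told apart. P-values therefore measure the spread between these libraries, which may be partly technical.

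Calpastatin is the natural inhibitor of the conventional calpains, proteases that are switched on by calcium and that cut cytoskeletal, signalling and membrane proteins at selected sites. Each conventional calpain joins a large catalytic subunit, the product of Capn1 or Capn2, to the small subunit encoded by Capns1, and calpastatin binds the calcium-loaded enzyme. In beta cells, calpain activity has been tied to the damage caused by aggregating human IAPP. The hCAST mice compared here carry the inhibitor's transgene without human IAPP.

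The libraries held 28287011 to 37989787 counts. Ribosomal RNA-rich entries (Rn45s, Lars2 and Mir6236) took 9.40%, 94.3% and 68.9% of the counts of the 3 WT libraries but 0.286% to 0.491% of those of the hCAST libraries. After these entries were left out, WT 2 kept 1667190 counts and WT 3 kept 8796210, against 34418809 in WT 1 and at least 34733362 in each hCAST library. WT 2 stood apart: its log2 CPM correlated with the other WT libraries at r = 0.977 and 0.979, against 0.992 between WT 1 and WT 3 and 0.994 to 0.996 within hCAST. The ribosomal share separates the groups completely, and its part in the results was not tested. Values without WT 2, WT 3 and rIAPP 2 are given beside each gene called in hCAST against WT. WT 1 is then the only WT library, and its share of 9.40% still lies above that of every hCAST library. Those values therefore cannot settle the part of the ribosomal share. CPM, or counts scaled to a common library size with edgeR's TMM factors, leave those entries out. All libraries had the hormone profile of islets, led by Ins1, Ins2, Iapp and Gcg.

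Among 15595 tested genes, 3 were higher in hCAST than in WT and 0 were lower at an adjusted p below 0.05 (edgeR's quasi-likelihood test, Benjamini-Hochberg over all tested genes), or 0.0192% of the genes tested. The 3 genes were Tram1l1, 1700006A11Rik and H2-Ea-ps. At an unadjusted p below 0.05 there were 507 higher and 619 lower genes, together 7.22% of those tested. That balance turned with the scaling, to 546 higher and 275 lower with library totals in place of TMM and to 1078 and 251 with limma on FPKM rescaled to equal library sums plus 1, and to 1004 and 887 without WT 1. Log2 fold changes were above 0 for 53.1% of tested genes, with a median of 0.01, and the groups did not overlap for 14.1%. Of 13331 genes with mean CPM no lower than 1, 12370 (92.8%) had a 95% interval of the log2 fold change that lay within 1 unit of 0. DESeq2, an alternative tool, called 7 genes higher and 24 lower, and without its filter on the mean count it called 9 and 15. Of the 3 genes above, DESeq2 called H2-Ea-ps and gave no adjusted p for Tram1l1 and 1700006A11Rik, and without that filter it called all 3.

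**Figure D1:**
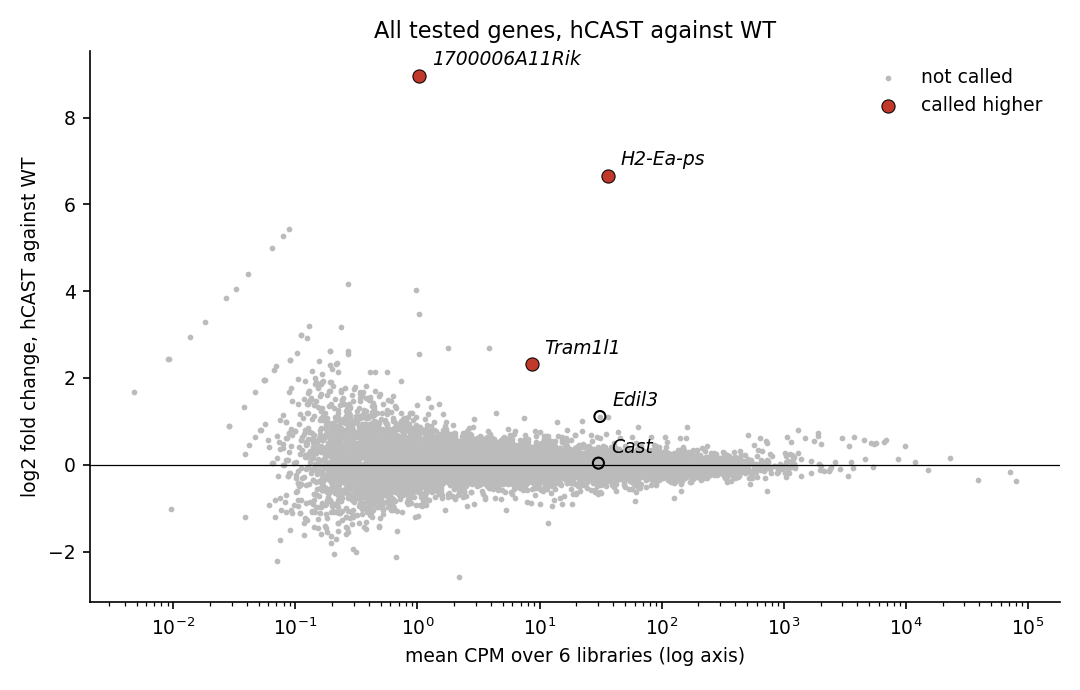
Log2 fold change of hCAST against WT (vertical axis) against the mean CPM over the 6 libraries (horizontal log axis) for every tested gene, with the called genes in red and Edil3 and Cast ringed. The 3 called genes, with log2 fold changes from 2.32 to 8.96, lie far above the cloud, and Cast lies at 0.04.

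Tram1l1 encodes a relative of TRAM1, a membrane protein of the endoplasmic reticulum that helps newly made secretory proteins through the translocon. Its 300-base reference promoter is shown because it is the called gene with the smallest p and the only 1 of the 3 called genes with an entry among RefSeq promoters of GRCm38.p6. The window, chr3:124320787-124321086 on the plus strand, runs from 250 bases before the RefSeq start to 50 bases after it. Capitals mark a GC box and a core of the NRF1 motif. The annotation used for gene positions below starts Tram1l1 at 124320855, inside this window, and by it the marked motifs lie within the gene.
Tram1l1: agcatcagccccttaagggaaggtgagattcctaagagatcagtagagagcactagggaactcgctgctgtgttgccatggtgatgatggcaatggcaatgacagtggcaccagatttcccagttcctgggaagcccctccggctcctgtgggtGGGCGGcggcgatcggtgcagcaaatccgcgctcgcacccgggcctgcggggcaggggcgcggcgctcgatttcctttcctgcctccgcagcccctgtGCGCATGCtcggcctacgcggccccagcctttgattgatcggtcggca
The window is 63.0% G or C, against a median of 52.7% over all 32851 promoters of that length. The GC box, GGGCGG on either strand, occurs 1 time here and in 35.7% of those promoters. The NRF1 core, GCGCATGC on either strand, was added to the search after this sequence was seen, and 2.71% of promoters hold it. Neither TATAAA nor CCAAT was found on either strand, and these occur in 13.6% and 37.4% of promoters. The motifs do not overlap. The letters are those of the reference assembly and were not read from FVB/NJ or from these libraries.

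Tram1l1 (ENSMUSG00000044528.5, a single-exon protein-coding gene at chromosome 3, 124320855 to 124324743, plus strand, GRCm38) stood at 2.71, 3.78 and 2.77 CPM in WT and at 15.4, 13.4 and 13.5 CPM in hCAST. Every hCAST library was thus above every WT library, and the libraries within a group lay close together. The log2 fold change was 2.32 ± 0.181 (SE), a fold difference with a 95% interval of 3.84 to 6.52, and the adjusted p in edgeR was 7.33e-06. Counts behind it were 118 in WT, of which WT 1 gave 87, and 1527 in hCAST. On the human IAPP background the gene stood at 2.56, 2.61 and 2.00 CPM without hCAST and at 15.8, 12.8 and 15.9 CPM with it. It stood at 3.71, 4.05 and 2.87 CPM in rIAPP, so the 6 libraries with the hCAST transgene were above the 9 without it. The hIAPP-hCAST against hIAPP difference was 2.63 ± 0.152 with an adjusted p of 7.21e-08 in edgeR. Without WT 2, WT 3 and rIAPP 2, the 3 most ribosomal-rich libraries, the hCAST against WT value was 2.38 with an adjusted p of 0.00506 in edgeR. Its relative Tram1 averaged 668 ± 17.9 CPM in hCAST and 678 ± 33.0 among WT (SD, n = 3), a log2 fold change of -0.02 with a 95% interval of -0.16 to 0.12.

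The neighbouring gene 1700006A11Rik (ENSMUSG00000027973.11, protein-coding, minus strand, chromosome 3, 124400989 to 124426040) lies 76.2 kb beyond Tram1l1. It had 0 counts in all 3 WT libraries and 68, 84 and 73 counts in hCAST, or 1.96, 2.23 and 2.02 CPM. Its 0 counts in WT allow up to 3 counts over the group, or 0.0703 CPM, by counting error alone, and against that floor hCAST was at least 29.5-fold higher. The adjusted p was 0.00212 in edgeR. It also had 0 counts in every hIAPP and rIAPP library and 82, 66 and 100 counts in hIAPP-hCAST, at least 75.4-fold higher than hIAPP. Reads of this gene were therefore found in 6 of 6 libraries with the transgene and in 0 of 9 without it. The call depended on WT 1: without this deepest WT library, the adjusted p was 0.0890 in edgeR, and without WT 2, WT 3 and rIAPP 2 it was 0.0317.

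Within 500 kb of this pair on chromosome 3, the count table held no other tested gene. Beyond that distance, Snhg8 lay 812 kb before Tram1l1 at 12.4, 10.7 and 15.0 CPM in WT and at 12.9, 15.8 and 14.9 in hCAST, with a log2 fold change of 0.15 and an adjusted p of 0.907 in edgeR. On the far side, Ndst4 lay 978 kb after 1700006A11Rik, with a log2 fold change of 0.16 ± 0.227 (SE). The 6 nearest tested genes, 3 on each side, were not called.

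H2-Ea-ps (ENSMUSG00000036322.11, chromosome 17, 34341959 to 34344645, minus strand) is annotated as a polymorphic pseudogene, a class that is intact in some mouse strains and broken in others. It corresponds to the alpha chain of the class II molecule I-E, which presents peptides to helper T cells. It stood at 0.685, 0.630 and 0.776 CPM in WT and at 75.4, 70.8 and 68.5 CPM in hCAST. The groups were thus far apart, and WT rested on 22, 1 and 7 counts against 2479 to 2669 in hCAST. The log2 fold change was 6.66 ± 0.514 (SE), a 101-fold difference with a 95% interval of 46.4 to 220, and the adjusted p in edgeR was 0.000222. With human IAPP, it stood at 0.846, 0.0932 and 0.214 CPM in hIAPP and at 143, 76.0 and 169 CPM in hIAPP-hCAST, a log2 fold change of 8.34 ± 0.446 with an adjusted p of 3.74e-06. In rIAPP it stood at 1.56, 1.71 and 1.13 CPM, so libraries with the hCAST transgene again lay above all 9 others. The 2 backgrounds did not pass the test of their difference (1.68 on the log2 scale, 95% interval -0.31 to 3.68, adjusted p 0.632 in edgeR). Without WT 2, WT 3 and rIAPP 2 the value in hCAST against WT was 6.70, but its adjusted p was 0.118 in edgeR, and the call was lost. WT is then 1 library, which the fit assumes to vary like the other groups.

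**Figure D2:**
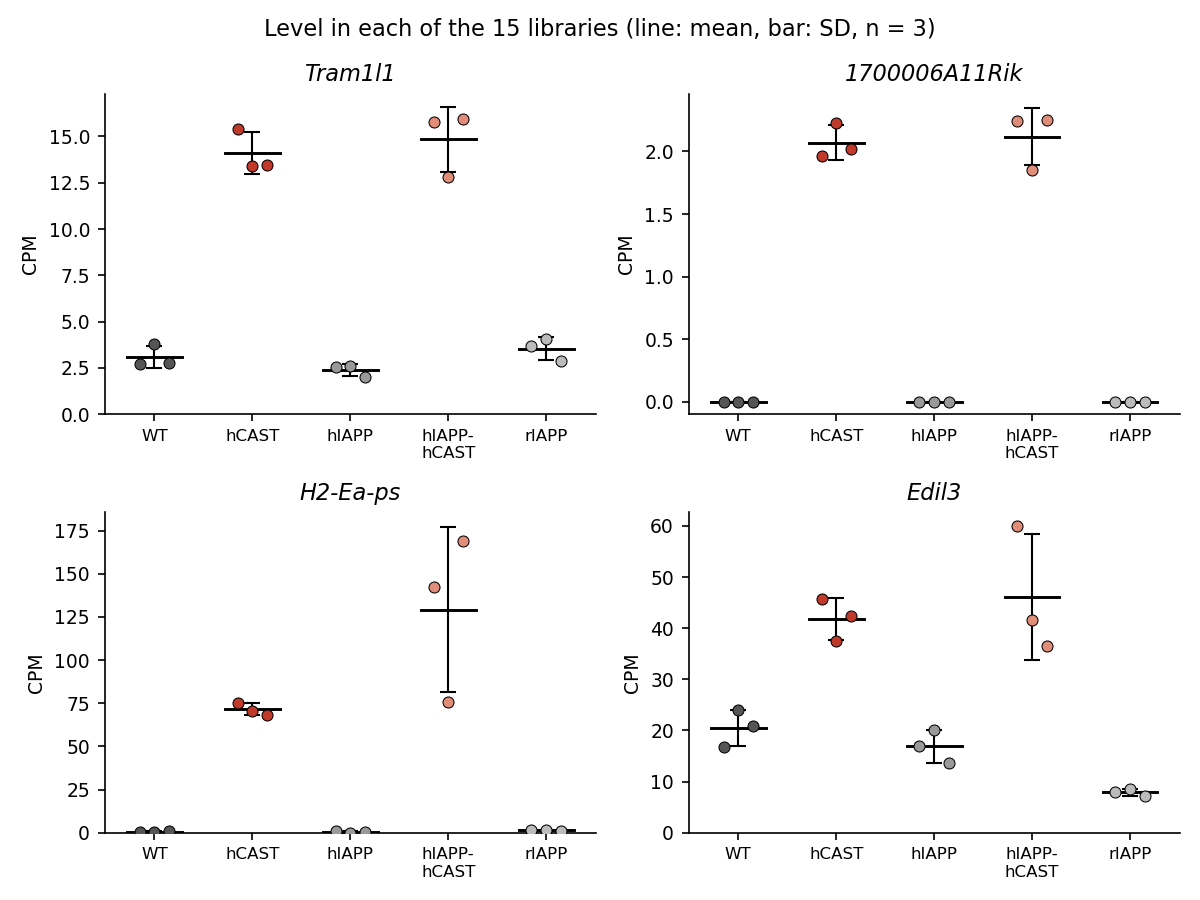
CPM of Tram1l1, 1700006A11Rik, H2-Ea-ps and Edil3 in each of the 15 libraries (points, linear axes), with the group mean (line) and SD (bar), n = 3. For all 4 genes the hCAST and hIAPP-hCAST libraries lie above the WT, hIAPP and rIAPP libraries; 1700006A11Rik is at 0 in the latter.

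H2-Ea-ps was the 1 called gene of the MHC class II list. Of the 12 genes in that list, 11 passed the filter on low counts, 6 had a log2 fold change above 0, and the median was 0.14, against 0.01 over all tested genes. H2-Aa and H2-Ab1, the chains of the other class II molecule I-A, averaged 64.3 ± 5.03 and 45.9 ± 4.97 CPM in hCAST and 61.0 ± 23.5 and 52.3 ± 4.21 in WT (SD, n = 3). The invariant chain Cd74 averaged 109 ± 4.67 CPM in hCAST and 108 ± 32.6 in WT. None of these 3 genes was called, and their 95% intervals on the log2 scale ran from -0.59 to 0.50. The partner of the I-E alpha chain, H2-Eb1, stood at 0.530, 0 and 0.554 CPM in WT and at 0.780, 0.716 and 0.912 in hCAST, with an adjusted p of 0.796 in edgeR. Ciita, the master regulator of class II genes, stood at 2.80, 0.630 and 4.10 CPM in WT and 2.25, 2.76 and 2.29 in hCAST, with no separation of the groups. Per length, H2-Ea-ps reached 91.4 CPM per kb in hCAST, a level above the 60.2 of H2-Aa and the 77.2 of Cd74, whereas in WT it was at 0.890 CPM per kb against 57.1 and 76.4. The markers of macrophages and myeloid cells, which normally carry class II, summed to 157 to 214 CPM in WT and 222 to 235 in hCAST. Of 21 tested, 17 had a log2 fold change above 0, with a median of 0.12, and 0 were called. Over all tested genes 53.1% were above 0 and 0.0192% were called.

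Of 98 other annotated genes within 500 kb of H2-Ea-ps, 50 were tested and 0 were called. Only 0.0192% of all tested genes were called, so 0 among 50 says little about this region. The log2 fold changes of the 50 ran from -0.64 to 0.93 with a median of 0.08. Only Rps18, a ribosomal protein gene, had an unadjusted p below 0.05, at 57.3 CPM in WT and 73.1 in hCAST and an adjusted p of 0.649 in edgeR. Its value without WT 2, WT 3 and rIAPP 2 was 0.03 on the log2 scale.

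**Figure D3:**
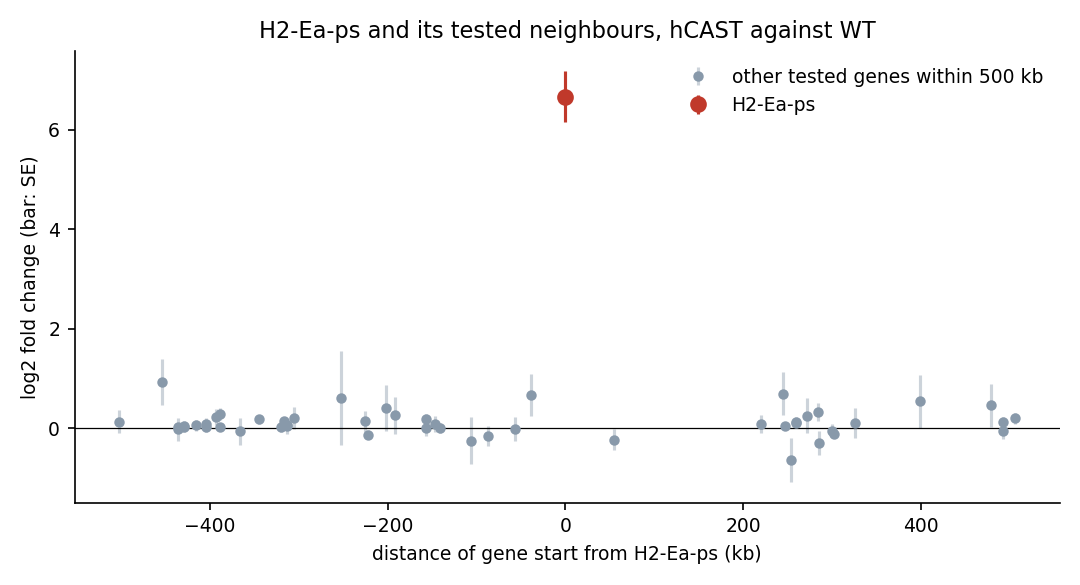
Log2 fold change (points) and SE (bars) of hCAST against WT for H2-Ea-ps (red) and the 50 other tested genes within 500 kb (grey), by distance of the gene start in kb. H2-Ea-ps lies at 6.66, and its neighbours lie between -0.64 and 0.93.

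Edil3, which encodes a secreted integrin-binding protein of the extracellular matrix, did not pass the threshold in hCAST against WT although its groups were apart. It stood at 16.8, 23.9 and 20.8 CPM in WT and at 45.7, 37.4 and 42.3 in hCAST, with no overlap. The log2 fold change was 1.11 ± 0.196 (SE), a 2.16-fold difference with a 95% interval of 1.62 to 2.89, and the adjusted p was 0.101 in edgeR. It passed in DESeq2 (adjusted p 0.000201), in edgeR with only the 6 libraries compared (0.00501) and with library totals in place of TMM (0.0175). It did not pass with limma's voom (0.0732), on rescaled FPKM with limma (0.0629 and 0.0781) or in edgeR with no filter on low counts (0.123). When a single WT or hCAST library was left out, its adjusted p ran from 0.187 to 0.585 in edgeR. Without WT 2, WT 3 and rIAPP 2 its log2 fold change was 1.32. With human IAPP, Edil3 stood at 17.0, 20.1 and 13.6 CPM in hIAPP and at 60.1, 41.6 and 36.6 in hIAPP-hCAST, where it was called higher (log2 fold change 1.45 ± 0.176, adjusted p 0.00194 in edgeR). It stood at 7.91, 8.64 and 7.15 CPM in rIAPP. Edil3 lies on chromosome 13 at 88821472 to 89323223, and its 3 tested neighbours within 500 kb had log2 fold changes from -0.10 to 0.02. Cast itself lies on the same chromosome at 74692368 to 74808810.

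Mouse Cast stood at 28.6, 30.9 and 30.7 CPM in WT and at 30.8, 31.3 and 29.6 in hCAST. The log2 fold change was 0.04 with a 95% interval of -0.12 to 0.20, so a change of the endogenous inhibitor's RNA beyond that interval was not seen. The human transgene is not analysed here, so the labels have no direct check in the targeted gene. The calpains that calpastatin inhibits were not called. Capn1 averaged 51.6 ± 2.86 CPM in hCAST and 53.7 ± 3.39 among WT (SD, n = 3), with an interval of -0.22 to 0.08 on the log2 scale. Capn2 averaged 93.0 ± 3.58 and 96.8 ± 13.2 CPM, with an interval of -0.27 to 0.15. The small subunit Capns1 stood at 129, 165 and 136 CPM in WT and at 116, 126 and 121 in hCAST. Its groups did not overlap, but its log2 fold change of -0.22 ± 0.0840 (SE) had an adjusted p of 0.649 in edgeR and was -0.09 without WT 2, WT 3 and rIAPP 2.

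Of the 16 genes in the calpain list, 12 passed the filter and 0 were called in either direction. Log2 fold changes were above 0 for 4 and below 0 for 8, with a median of -0.05 and a range of -0.59 to 0.44. Over all tested genes 0.0192% were called and 53.1% were above 0, so 0 calls among 12 says little about calpains. Capn15, an atypical calpain, averaged 8.77 ± 0.399 CPM in hCAST and 11.8 ± 2.24 in WT, a log2 fold change of -0.38 with an adjusted p of 0.633 in edgeR. Capn7, another atypical member, averaged 144 ± 3.24 CPM in hCAST and 150 ± 12.2 in WT. Capn5 and Capn10 had log2 fold changes of -0.01 and 0.06. Capn3, Capn6, Capn9 and Capn12 were at under 3 CPM in all 6 libraries, and Capns2, Capn8, Capn11 and Capn13 did not pass the filter. Genes whose proteins are known calpain substrates were 15, all tested, with 9 above 0, a median of 0.02 and 0 called. Among these, Bax, a pro-apoptotic pore former, averaged 23.2 ± 1.04 CPM in hCAST and 18.6 ± 2.56 in WT, with an adjusted p of 0.649 in edgeR.

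The insulin genes had lower values in the hCAST libraries and did not pass the test. Ins1 and Ins2 together took 15.8%, 16.3% and 16.1% of the counts in WT and 14.1%, 14.0% and 12.2% in hCAST. The groups did not overlap, and the means were 16.1% ± 0.232 and 13.4% ± 1.05 (SD, n = 3), with p = 0.1 in a two-sided exact permutation test, the smallest that 3 against 3 libraries can give. Ins2 stood at 91379, 95927 and 81843 CPM in WT and at 72338, 70520 and 63661 in hCAST, a log2 fold change of -0.38 ± 0.104 (SE) with an adjusted p of 0.532 in edgeR and 0.0120 in DESeq2. Ins1 averaged 67255 ± 3418 CPM in hCAST and 75998 ± 1904 in WT, with an interval of -0.45 to 0.09 on the log2 scale. The hCAST transgene uses the insulin II promoter, as do the IAPP transgenes, and the part of that promoter in the Ins2 values was not tested. In the pair with human IAPP the Ins2 value was -0.07, and the difference between backgrounds was 0.31 with an adjusted p of 0.573. The share of exocrine acinar genes differs between libraries too and enters the same total: it was 8.34%, 4.68% and 1.99% in WT and 5.39%, 5.86% and 11.1% in hCAST (p = 0.4, two-sided exact permutation test). Its part in the insulin values was not tested.

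The other islet hormones were not called. Iapp stood at 34532, 62470 and 33860 CPM in WT and at 33479, 34220 and 35153 in hCAST. The high value was that of WT 2, and without WT 2, WT 3 and rIAPP 2 the log2 fold change of -0.35 became -0.01. Glucagon (Gcg) averaged 24377 ± 1182 CPM in hCAST and 21856 ± 1648 in WT, with an interval of -0.05 to 0.36 on the log2 scale. Somatostatin (Sst) averaged 2046 ± 206 and 2257 ± 120 CPM, and Ppy, the pancreatic polypeptide gene, averaged 2408 ± 655 and 2497 ± 1027. In bulk islets, fewer cells of a type and less RNA per cell cannot be told apart.

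All 30 beta-cell genes passed the filter and 0 were called. Of these, 7 had a log2 fold change above 0 and 23 below, with a median of -0.13. Over all tested genes 53.1% were above 0, the median was 0.01 and 0.0192% were called. An unadjusted p below 0.05 in edgeR was found for 5 of the 30 (16.7%), all of them lower, against 7.22% of all tested genes. That share did not set beta-cell genes apart. It was 20% for granule and for oxidative stress genes, 18.75% for apoptosis genes and 17.6% for respiratory chain genes (3 higher, 0 lower). For the calpain list (0 higher, 2 lower) and immediate-early genes (3 higher, 0 lower) it was 16.7%. Acinar, macrophage and myeloid, matrix and proteasome genes had 0%. Nkx2-2, a transcription factor of beta-cell identity, stood at 64.6, 80.6 and 61.6 CPM in WT and at 50.9, 46.0 and 39.4 in hCAST, with an adjusted p of 0.313 in edgeR and 0.0120 in DESeq2. Nnat, an imprinted gene whose product acts in the endoplasmic reticulum of beta cells, stood at 184, 166 and 169 CPM in WT and at 142, 97.1 and 105 in hCAST. Its adjusted p was 0.363 in edgeR, 0.0372 without hCAST 1, and 0.0120 in DESeq2. Prlr, the prolactin receptor, averaged 298 ± 28.7 CPM in hCAST and 391 ± 16.0 in WT, with an adjusted p of 0.649. With human IAPP the beta-cell list had a median of 0.10 and 23 of 30 above 0, and 0 called.

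**Figure D4:**
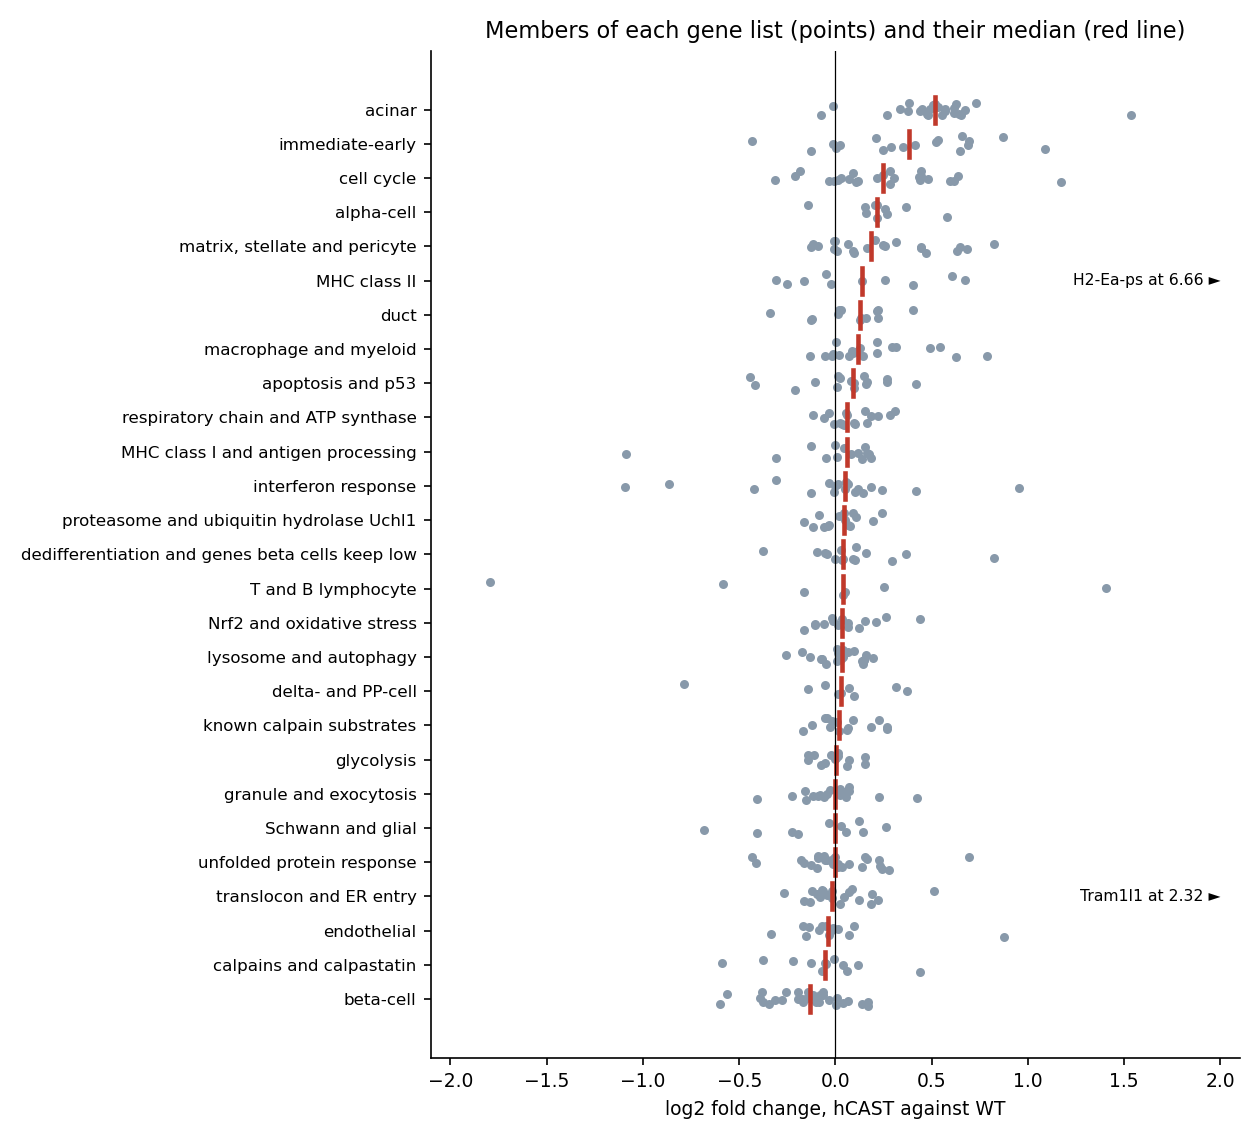
Log2 fold change of hCAST against WT for the tested members (points) of 27 gene lists, each with its median (red line); H2-Ea-ps and Tram1l1 lie off the axis and are named. Medians run from -0.13 in beta-cell genes to 0.52 in acinar genes.

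Genes of other cell types had no calls, where 0.0192% of all tested genes were called and 53.1% were above 0. Of 25 acinar genes, 23 were above 0 with a median of 0.52, but their summed CPM ran from 19418 to 89443 in WT and from 54028 to 115463 in hCAST, so the groups overlapped widely. Without WT 2, WT 3 and rIAPP 2, the acinar median was -0.24. Try5, a trypsinogen, stood at 2452, 1375 and 483 CPM in WT and at 1608, 1734 and 3825 in hCAST. Of 10 alpha-cell genes, 9 were above 0 with a median of 0.22, which was 0.09 without those libraries. An unadjusted p below 0.05 in edgeR was found for 3 of these 10 (30%), all of them higher, against 7.22% of all tested genes. Respiratory chain and immediate-early genes also had 3 higher and 0 lower at such a p, or 17.6% and 16.7% of those lists. Ttr and Irx2 averaged 1110 ± 121 and 17.8 ± 0.0944 CPM in hCAST and 922 ± 200 and 14.9 ± 1.77 in WT. Matrix, stellate and pericyte genes had a median of 0.18, with 16 of 22 above 0. Col1a2, a fibrillar collagen chain, averaged 97.7 ± 27.2 CPM in hCAST and 64.6 ± 17.2 in WT, with an adjusted p of 0.781 in edgeR. Without those libraries the matrix median was 0.60. Endothelial genes had a median of -0.04, and Cdh5, the cadherin of endothelial junctions, averaged 29.2 ± 2.88 and 38.5 ± 6.51 CPM. Of 16 T and B lymphocyte genes, 7 passed the filter and had a median of 0.04, which was -0.27 without WT 1. Delta- and PP-cell genes had a median of 0.03, duct genes 0.13, Schwann and glial genes -0.0043, and genes that mature beta cells keep low 0.04, with 0 called in each. Without WT 2, WT 3 and rIAPP 2 the delta- and PP-cell, duct, and Schwann and glial medians were 0.15, 0.03 and 0.28, and without WT 3 alone the first was 0.30.

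Lists of stress and secretory pathways held 1 called gene, where 0.0192% of all tested genes were called. The 21 genes of the translocon and entry into the endoplasmic reticulum had a median of -0.02, and Tram1l1 was the only called member; Sec63, a translocon partner, averaged 132 ± 6.65 CPM in hCAST and 162 ± 24.3 in WT, with an adjusted p of 0.611 in edgeR. The 27 genes of the unfolded protein response had a median of -0.0049, 13 above 0 and 14 below, and 0 called. Dnajb9, a chaperone cofactor, averaged 121 ± 25.4 CPM and 165 ± 16.5, and Sdf2l1 averaged 52.1 ± 2.82 and 42.7 ± 6.57. The 20 granule and exocytosis genes were split evenly, with 10 above 0. Among these, Vamp2, part of the vesicle fusion machinery, averaged 27.8 ± 5.40 CPM in hCAST and 37.9 ± 3.89 in WT, while Vgf, a granule precursor protein, averaged 27.4 ± 2.49 and 19.6 ± 3.94. Neither passed, with adjusted p of 0.611 and 0.606 in edgeR. The 16 apoptosis and p53 genes had a median of 0.09 and 0 called. The lists for the interferon response, antigen presentation by class I, lysosome and autophagy, proteasome, respiratory chain, glycolysis and oxidative stress had medians from 0.00 to 0.06 and 0 called.

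Immediate-early genes, which respond within minutes to a stimulus or to handling, had the largest median after acinar genes, 0.38, with 15 of 18 above 0 and 0 called. Of all tested genes 53.1% were above 0 and 0.0192% were called. Fosb stood at 15.7, 40.9 and 22.6 CPM in WT and at 24.9, 57.6 and 57.1 in hCAST, so the groups overlapped, and its adjusted p was 0.649 in edgeR. The summed CPM of the list ran from 593 to 956 in WT and from 687 to 1296 in hCAST, and the median was 0.67 without WT 2, WT 3 and rIAPP 2. Cell cycle genes had 20 of 25 above 0 and a median of 0.25, but their summed CPM was lower, at 1563, 1493 and 1410 in WT and 1449, 1376 and 1218 in hCAST. Aurkb, a mitotic kinase, averaged 0.661 ± 0.123 CPM in hCAST and 0.188 ± 0.174 in WT, with an adjusted p of 0.649.

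The 10 genes with the smallest p on each side, taken by the naming rule among genes whose mean CPM was no lower than 1 and whose groups did not overlap (predicted, Rik and immune receptor segment genes left out), are given next. On the higher side were Tram1l1, H2-Ea-ps, Rps16, Edil3, Odc1, Map3k19, Rit2, Rps10, Rps29 and Rpl39. For Odc1, which starts polyamine synthesis, and the ribosomal protein genes Rps16, Rps10, Rps29 and Rpl39, the 3 WT libraries were below all 12 other libraries of the series. That held for 310 of all tested genes (1.99%), or 25.5% of the 1214 whose hCAST libraries were all above WT. Rps16 stood at 78.3, 72.4 and 77.4 CPM in WT, at 107, 97.5 and 104 in hCAST, and at 96.0 to 115 in the 9 libraries of the other groups. Its adjusted p was 0.0749 in edgeR and 0.000639 in DESeq2. Rit2, a small GTPase of the Ras family, stood at 14.4, 11.3 and 17.2 CPM in WT and at 20.7, 21.7 and 24.3 in hCAST, with an adjusted p of 0.327 in edgeR and 0.0261 in DESeq2. It was called higher in hIAPP-hCAST than in hIAPP (0.62 against 0.57 in hCAST against WT, adjusted p 0.0203). Map3k19, a kinase, averaged 9.79 ± 2.15 CPM in hCAST and 5.01 ± 0.782 in WT, but its value with human IAPP was -0.02.

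On the lower side were St5, Aak1, Samd4b, Alg2, R3hdm1, Zfp871, Hmgn5, Nkx2-2, Arsb and Rc3h2, and 0 passed in edgeR. For 9 of these, all but Alg2, the 3 WT libraries were above all 12 other libraries, as they were for 371 of all tested genes (2.38%) and 37.8% of the 981 genes whose hCAST libraries were all below WT. Aak1, a kinase of clathrin-coated vesicles, stood at 89.4, 98.9 and 78.5 CPM in WT, at 64.5, 58.3 and 60.2 in hCAST and at 57.6 to 71.3 in the other 9 libraries. The adjusted p was 0.0951 in edgeR and 0.000583 in DESeq2. St5 stood at 67.5, 68.6 and 65.4 CPM in WT and at 51.3, 51.0 and 47.0 in hCAST, with adjusted p 0.0749 in edgeR and 0.000402 in DESeq2. Values on the human IAPP background had the same sign for 8 of the 10, with 0 called.

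With human IAPP, 14 genes were higher and 56 lower in hIAPP-hCAST than in hIAPP, or 0.449% of those tested. When each fit held only the groups compared, hIAPP-hCAST against hIAPP had 2 higher and 0 lower genes and hCAST against WT had 4 higher. Which comparison had more calls thus depended on the fit. The 2 higher genes were Tram1l1 and 1700006A11Rik, so H2-Ea-ps, Edil3 and Rit2 were not called with human IAPP in that fit. Of the 14 higher genes, 13 had a log2 fold change above 0 in hCAST against WT, and 3 were called there. Without Tram1l1, 1700006A11Rik and H2-Ea-ps, the other 11 had a median of 0.12 in hCAST against WT and 0.72 with human IAPP. These genes were chosen by their values with human IAPP, a choice that can enlarge those values, so the 2 medians are not like for like. Arhgap36 averaged 83.0 CPM in hCAST and 45.1 in WT, with an adjusted p of 0.532 in edgeR and 0.0128 in DESeq2, and 66.6 in hIAPP-hCAST and 26.1 in hIAPP, with an adjusted p of 0.0149. The 56 lower genes had a median of -0.93 with human IAPP and 0.07 in hCAST against WT, where 33 were above 0, 23 below and 0 called. They were chosen in the same way, and the same limit holds for their medians. Loxl1, which crosslinks elastic fibres, averaged 5.21 CPM in hCAST and 5.13 in WT, but 4.99 in hIAPP-hCAST and 13.0 in hIAPP. Apoe, a lipid carrier made by macrophages, averaged 405 CPM in hCAST and 363 in WT, but 888 in hIAPP-hCAST and 1527 in hIAPP. Fibronectin (Fn1) averaged 4.45 CPM in hCAST and 3.04 in WT, but 8.70 in hIAPP-hCAST and 22.4 in hIAPP. Arhgap36, Loxl1 and Apoe were named after their values were seen.

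A direct test of the difference between the backgrounds called 0 of 15595 genes (0%) in edgeR, with 1343 at an unadjusted p below 0.05, and 44 in DESeq2. For the 56 lower genes the smallest adjusted p of that difference in edgeR was 0.159, that of Loxl1 and Sdc1, and 54 had an unadjusted p below 0.05. These 56 were chosen by their low value in hIAPP-hCAST against hIAPP, which is part of that difference. The count of 54 was therefore partly fixed by the choice and is not a separate result. The difference passed for Loxl1 with library totals in place of TMM, for Loxl1 and Sdc1 with voom, for Mgp without hIAPP-hCAST 1, for Cilp, Ecm1, Loxl1 and Sdc1 without hIAPP-hCAST 2, and for Cilp without hIAPP-hCAST 3. Sdc1, Mgp, Cilp and Ecm1 were named after their values were seen. The 56 calls were themselves sensitive to the libraries used, and the total of 70 ran from 16 to 172 as single libraries were left out. Of the 1126 genes with an unadjusted p below 0.05 in hCAST against WT, 82 (7.28%) had the same direction and such a p with human IAPP, which was 4.65% of the 1762 there, and 49 had the opposite direction. In either direction that is 11.6% of the 1126, against 11.3% of all tested genes with such a p with human IAPP.

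**Figure D5:**
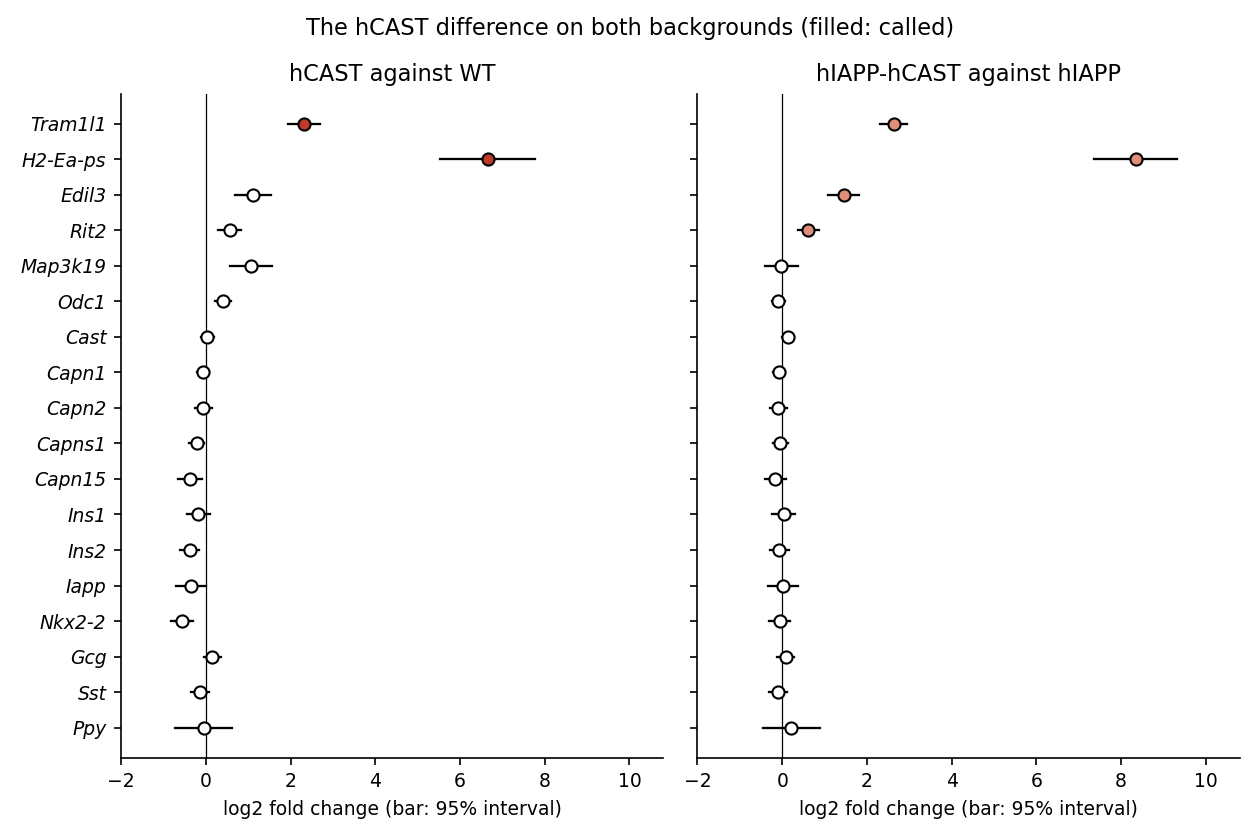
Log2 fold change with its 95% interval for hCAST against WT (left) and hIAPP-hCAST against hIAPP (right); filled points were called. In the fit over all 15 libraries, Tram1l1 and H2-Ea-ps were called on both backgrounds and Edil3 and Rit2 with human IAPP. Cast lies at 0.04 and 0.14.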

How the data were processed

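Gene read counts and FPKM for 15 libraries were deposited by the authors. Per the submitters' processing notes, STAR and HTSeq were used with GRCm38 (mm10); versions, annotation and strand setting are not given in the sources used here. The count unit is whole reads per gene, and the deposited FPKM are scaled by gene length and by a total that includes ribosomal RNA. Per the labels' protocols, total RNA was depleted of ribosomal RNA before library preparation. Here, 3 ribosomal RNA-rich entries (Rn45s, Lars2 and Mir6236) were left out before scaling. Counts were then fitted with edgeR 4.0.16 in R 4.3.3 (TMM, its filter on low counts by group, robust quasi-likelihood test) over all 15 libraries, which share the estimate of spread, and 15595 genes were tested. The fit was tested on simulated counts that had the same spread for every gene and library, so that test does not cover libraries that differ in spread. SEs and 95% intervals come from that fit, and the floor for a count of 0 is 3 counts over the group; both cover what was sequenced only. CPM per kb uses the gene length implied by both tables. Named genes were the called genes, the 10 smallest p on each side (groups not overlapping, mean CPM no lower than 1, predicted, Rik and immune receptor segment genes left out unless called), and members of 27 lists. The comparison and the lists were chosen with earlier results of these data known. Alternatives were DESeq2 1.42.0, limma 3.58.1 (voom, and log2 of FPKM plus 1 or 0.1), other filters and scalings, and libraries left out. DESeq2 without independent filtering and FPKM rescaled to equal sums outside the 3 entries were added after the data were seen.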

Additional observations from a re-analysis of the deposited data

How the results depend on the processing

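The count of 3 genes in hCAST against WT was 31 with DESeq2, 24 with DESeq2 without independent filtering, and 2 without WT 2, WT 3 and rIAPP 2; the cause was not tested. It ran from 3 to 4 as single libraries were left out, and was 3 or 4 with the other filters, scalings and voom. The genes were not always the same. Without WT 1 they were H2-Ea-ps, Tram1l1, Mns1 and Rps15a (3 higher, 1 lower), and without hCAST 1 Nnat joined the 3 as a lower gene. On the FPKM as deposited it was 13167 with a pseudocount of 1 and 13311 with 0.1, all higher; that unit divides by a total that includes ribosomal RNA, and on FPKM rescaled outside the 3 entries it was 3. For hIAPP-hCAST against hIAPP the count of 70 was 283 and 276 with DESeq2 with and without independent filtering, 107 with no filter on low counts, 2 with only the groups compared, 124 without TMM, 115 with voom, 11 and 3 on FPKM, 39 and 9 on rescaled FPKM, 35 without WT 2, WT 3 and rIAPP 2, and 16 to 172 as single libraries were left out. For the difference between backgrounds the count of 0 was 44 and 40 with DESeq2, 1 without TMM, 2 with voom, 50 and 6 on FPKM, and 0 to 5 as single libraries were left out. The insulin share differed by 6.64 percentage points the other way when taken of all counts. On FPKM plus 1, these genes changed sign and were called: Rc3h2 1.34, Capn1 1.56, Capn2 1.71, Capns1 1.69, Capn5 1.35, Capn7 1.77, H2-Aa 1.94, H2-Ab1 1.65, Cd74 1.91, Sec63 1.48, Mgp 1.90 and Tram1 1.95. On FPKM plus 0.1 the same held for Capn1 1.89, Capn2 1.93, Capn5 1.94, Capn7 1.93, Sst 1.86, Ppy 1.99, H2-Aa 2.14, H2-Ab1 1.80, Cd74 2.05, Ciita 0.98, Mgp 2.04 and Tram1 1.98. In the other 16 settings, 1206 of 1306 values of 83 named genes kept direction and side of the threshold, and 0 reversed while called. No paired analysis was possible, because the labels give each library its own number and state no litter by which libraries could be paired. WT 2 had 1667190 counts outside the 3 entries, which limits the precision of low genes there.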
